A study of Drosophila melanogaster with 3 samples.

Results

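The aminoacyl-tRNA synthetase genes were taken as the protein-coding genes of the dm6 annotation whose symbol is a single amino acid code followed by RS or RS-m. The rule found 32 of 13945 protein-coding genes on the 6 main chromosome arms. Of these, 17 lack the suffix -m and are called cytosolic here, and 15 have the suffix, which marks a mitochondrial enzyme. The data come from chromatin immunoprecipitation with sequencing, with an anti-GFP antibody, on whole Drosophila melanogaster embryos of both sexes, 0 to 16 h old. All 3 biological replicates came from 1 transgenic strain that stably carries CG4424, a zinc finger protein gene, with GFP at the C terminus of its product, and they form 1 group. The sequences that drive the transgene and the cells that make the protein are not stated in the sources that were read. Embryos were pooled, so a site in few cells and a weak site in many cannot be told apart.

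Aminoacyl-tRNA synthetases join each amino acid to its own tRNA, the step that fixes the meaning of the genetic code. The cytosolic enzymes charge the tRNAs that read nuclear messages, and several of them sit together in a multisynthetase complex. Mitochondria translate their own messages and need charged tRNAs too. The nucleus encodes enzymes for them, and for some amino acids, glycine and lysine among them in animals, 1 gene serves both compartments. Such genes lack the suffix and are counted as cytosolic throughout.

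A synthetase gene was called occupied when a summit, the highest point of a region, of the authors' reproducibility-thresholded (optimal) set lay within 500 bp of any annotated start of the gene. Of the 32 genes, 11 were occupied (34.4%, exact binomial 95% interval 18.6 to 53.2), against 24.9% of all protein-coding genes, so the interval for all synthetases includes the share of genes at large. The share was higher for cytosolic than for mitochondrial enzymes, but the intervals overlap, and the mitochondrial one includes the share of all genes. Among cytosolic enzymes 9 of 17 were occupied (52.9%, interval 27.8 to 77.0), and among mitochondrial enzymes 2 of 15 were (13.3%, interval 1.66 to 40.5). Such intervals cover counting error only, and treat genes as independent.

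The sequence under 5 of the 11 summits is printed here to show what bound promoters look like. These 5 windows hold no annotated untranslated region and lie on 2L and 3L only. The windows of the other 6 genes are not printed, and lack of such a region was not the only ground for the choice. The intergenic MetRS summit, for example, was 96 bp from the MetRS start and 149 bp from that of CG15084, so its window reaches neither. The 5 may therefore not stand for all 11. Each is 101 bases, the summit with 50 bases on either side, read from the RefSeq Release 6 assembly (dm6) on the strand of the synthetase gene, from 5′ to 3′. Capitals mark matches to the searched elements, on either strand. In these windows they are the letters of the TATA box, TATAAA (AsnRS and GlyRS), the BEAF-32 core CGATA (at 2 places of AspRS-m), and the Motif 7 type CAGCNCTG (GlyRS). The windows are chr3L:22288457-22288557 for IleRS, chr2L:12103483-12103583 for ThrRS, chr2L:19132013-19132113 for AsnRS, chr3L:15095012-15095112 for GlyRS and chr2L:16826973-16827073 for AspRS-m.
IleRS: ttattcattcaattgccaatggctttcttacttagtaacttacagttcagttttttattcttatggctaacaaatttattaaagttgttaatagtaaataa
ThrRS: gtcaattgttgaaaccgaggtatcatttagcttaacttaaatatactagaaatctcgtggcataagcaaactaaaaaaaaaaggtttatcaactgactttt
AsnRS: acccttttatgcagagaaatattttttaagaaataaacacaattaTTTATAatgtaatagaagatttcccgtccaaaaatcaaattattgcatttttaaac
GlyRS: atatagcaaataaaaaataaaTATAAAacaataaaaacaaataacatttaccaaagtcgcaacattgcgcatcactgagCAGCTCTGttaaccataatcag
AspRS-m: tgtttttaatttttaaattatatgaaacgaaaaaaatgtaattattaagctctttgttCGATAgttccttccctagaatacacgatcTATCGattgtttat

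These windows are rich in A and T. Their GC content was 23.8% at IleRS, 29.7% at ThrRS, 22.8% at AsnRS, 28.7% at GlyRS and 24.8% at AspRS-m. Over the windows of all 11 occupied synthetases the median GC content was 27.7% (19.8 to 41.6), and over 2821 other optimal summits within 500 bp of a protein-coding start it was 32.7%. The IleRS and ThrRS windows, which belong to 2 of the stronger sites, held none of the 9 elements searched.

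IleRS, the isoleucine enzyme, had the strongest region of all synthetase genes. Its summit lay at 22288507 of 3L, 158 bp upstream of the start, in intergenic sequence, with a pooled signal of 1216 (rank 288 of 6420 optimal regions). In the replicates its signal was 345.2 in replicate 1, 448.0 in replicate 2 and 409.1 in replicate 3. Signal is the authors' own value, of unstated scale, and is compared between lists only by rank. By rank the IleRS region was within the strongest 1.26% of every replicate list (1.00%, 1.26% and 0.876%).

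SerRS, the serine enzyme, came next, and it was the only occupied synthetase whose summit lay downstream of the start used. The pooled signal was 1153 (rank 318) at 3037379 of 2L, 24 bp downstream of the outer start, in the 5' untranslated region. A second SerRS start lies downstream, and from there the same summit was 116 bp upstream. Replicate signals were 335.7, 494.4 and 305.5, all within the strongest 1.66% of their lists.

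AspRS, the aspartate enzyme, was occupied at inner starts and not at its outermost one. The stronger of its 2 optimal summits had a pooled signal of 812.3 (rank 658) and replicate signals of 227.6, 275.4 and 300.3, and lay 280 bp upstream of an inner start. Its other summit, of signal 476.7, lay 80 bp upstream of the same start. Both stand next to a start of Nmda1, which is transcribed the other way from 54 bp upstream of that AspRS start. The stronger summit lay in sequence annotated as an intron of AspRS and of Nmda1. The outermost AspRS start, at 12877004 of 2R, had no optimal summit within 500 bp. That start has a divergent partner of its own, Lfg, 38 bp away.

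ThrRS and AsnRS, for threonine and asparagine, were of intermediate strength. At ThrRS the pooled signal was 715.5 (rank 850), 218 bp upstream of the start, and the replicates gave 212.2, 292.4 and 210.4, within the strongest 3.54% of each list. For AsnRS the pooled signal was 507.1 (rank 1590), 109 bp upstream, with 154.5, 190.6 and 170.2 in the replicates. AsnRS had another optimal summit of signal 277.3, at -311 bp. The ranks of both genes lay between 3.02% and 6.15% of a list in all 3.

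The other cytosolic sites had lower pooled signals. MetRS, the methionine enzyme, had a pooled signal of 356.4 (rank 2757) and replicate signals of 78.1, 185.9 and 94.8. Its region stood at 6.41% of the list in replicate 2 and at 16.6% in replicate 1. ValRS, for valine, had 271.9 (rank 3968) and 77.2, 116.3 and 82.6 in the replicates. GlyRS, whose gene serves cytosol and mitochondria in animals, had 258.9 (rank 4237) and 63.2, 97.8 and 96.4. AlaRS, for alanine, was the weakest cytosolic site, with 224.9 (rank 5039) and 45.8, 82.0 and 86.0. AlaRS ranked 7304 in replicate 1, outside the 6420 strongest regions there, and 5904 and 4382 in the others.

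Both occupied mitochondrial enzymes were in the weaker part of the optimal set. CysRS-m, for cysteine, had a pooled signal of 312.6 (rank 3298), and 79.9, 139.8 and 95.8 in the replicates, between 9.78% and 16.1% of the lists. The summit of CysRS-m lay 153 bp upstream of its start but only 15 bp from a start of O-fut1, the O-fucosyltransferase of the Notch receptor. AspRS-m had 191.3 (rank 6230 of 6420), close to the end of the optimal set, with 41.5, 74.8 and 54.4 in the replicates. The AspRS-m region was among the 6420 strongest of no replicate (ranks 8315, 6629 and 8124), although each replicate list held it within 55 bp of the start. No mitochondrial enzyme had a summit among the 3210 optimal regions of highest signal (exact interval 0 to 21.8), while 6 of 17 cytosolic enzymes did (35.3%, exact interval 14.2 to 61.7). Of all protein-coding genes 14.9% did, which lies within both intervals.

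**Figure D1:**
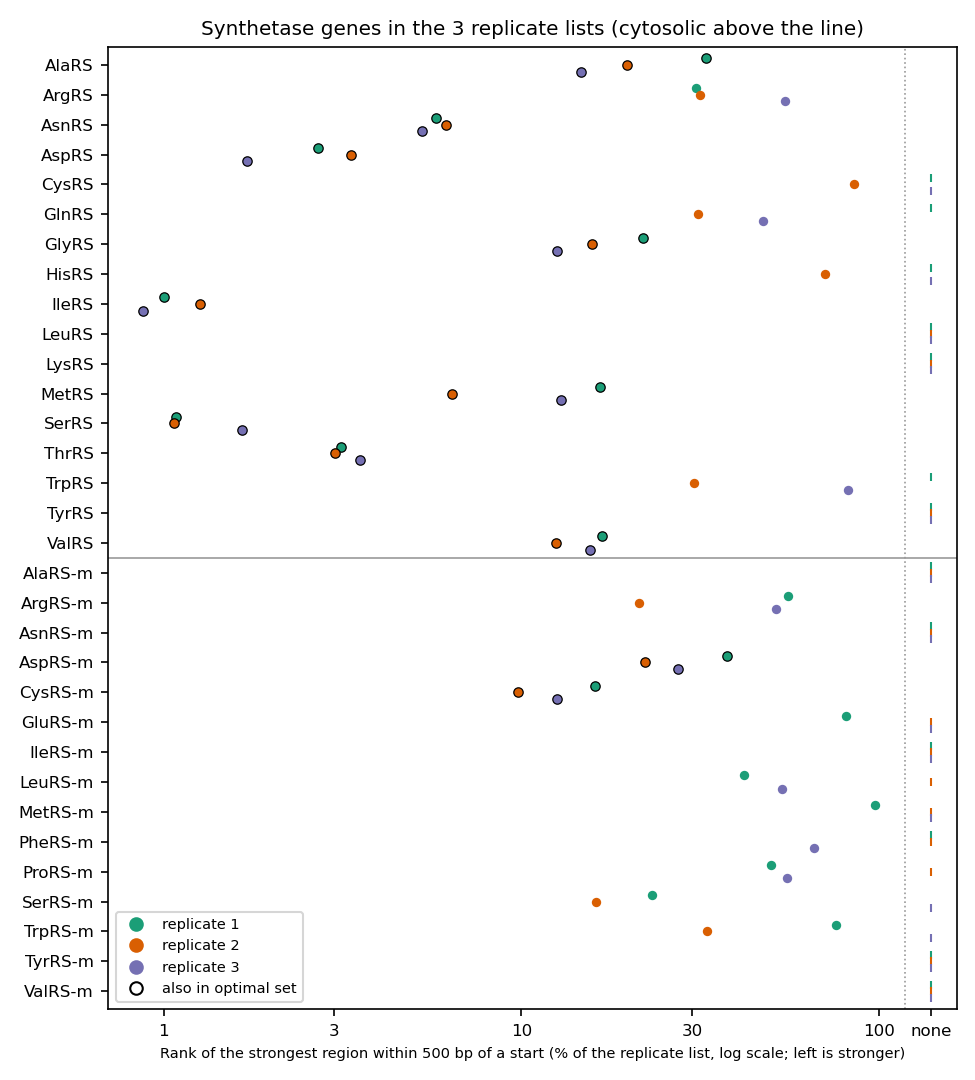
Rank of the strongest region within 500 bp of a start, as a percentage of each replicate's list (log axis, stronger to the left), for the 17 cytosolic genes above the line and the 15 mitochondrial genes below it. Coloured points are the 3 replicates, black rims mark the 11 genes occupied in the optimal set, and ticks at the right mark no region; IleRS and SerRS lie between 0.876% and 1.66% in every replicate, and the leftmost mitochondrial value is 9.78% (CysRS-m).

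The difference between cytosolic and mitochondrial enzymes was seen in each replicate. Taking the 6420 strongest regions of a replicate, as many as the optimal set holds, 47.1%, 52.9% and 52.9% of cytosolic genes were occupied in replicates 1, 2 and 3, a mean of 51.0% ± 3.40 (SD, n = 3). Mitochondrial genes were occupied in 13.3%, 20.0% and 6.67% of cases, a mean of 13.3% ± 6.67 (SD, n = 3). Between these lay all protein-coding genes, at 25.8%, 25.6% and 23.6%. The cytosolic share was higher in 3 of 3 replicates, by 37.6 percentage points ± 7.48 (SD, n = 3), a gap larger than the spread between replicates. An exact sign-flip permutation test over the replicates, two-sided, gave p = 0.25, the smallest that 3 replicates allow. The replicates assay the same genes, so the test does not cover which genes happen to be in each set.

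**Figure D2:**
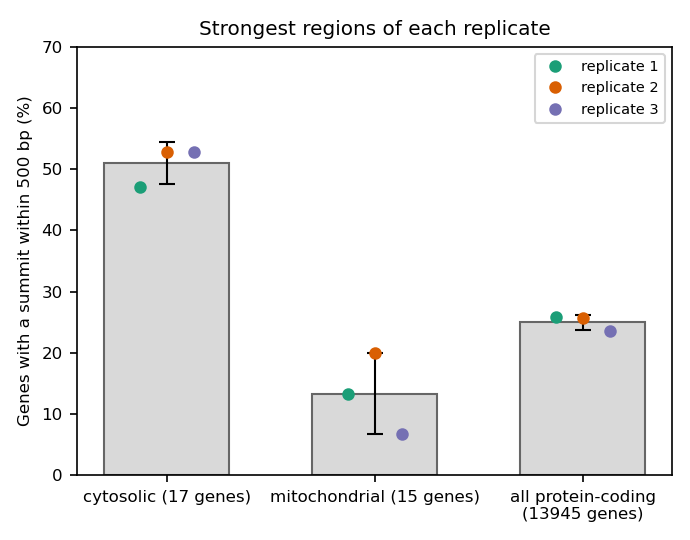
Percentage of genes with a summit within 500 bp of a start among the 6420 strongest regions of each replicate, for cytosolic synthetases, mitochondrial synthetases and all protein-coding genes. Points are replicates, bars are means and whiskers are SD (n = 3); every cytosolic value, from 47.1% to 52.9%, lies above every mitochondrial value, from 6.67% to 20.0%.

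With weaker regions counted as well, the gap was not seen in every replicate. Genes reached by weaker regions alone were not counted separately. When all regions of a replicate list were counted, replicate 1 had 10 of 17 cytosolic genes (58.8%) and 9 of 15 mitochondrial genes (60.0%), against 45.2% of all protein-coding genes. Replicate 2 had 82.4% and 33.3%, against 52.5%, and replicate 3 had 70.6% and 40.0%, against 49.7%. The mean difference was then 26.1 percentage points ± 25.4 (SD, n = 3), close in size to its own spread, with an exact sign-flip permutation p = 0.50. On the pooled relaxed list, which holds 29056 regions including background, 12 of 17 cytosolic and 5 of 15 mitochondrial genes had a summit, 17 of 32 in all (53.1%, against 50.5% of all protein-coding genes).

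For 12 amino acids the fly has separate cytosolic and mitochondrial genes under this rule. Only the cytosolic gene was occupied for 6 of them (alanine, asparagine, isoleucine, methionine, serine and valine). Aspartate had both genes occupied, cysteine only the mitochondrial gene, and arginine, leucine, tryptophan and tyrosine neither. Synthetases also fall into 2 structural classes of catalytic domain. Class II enzymes were occupied in 7 of 14 cases (50%, exact interval 23.0 to 77.0) and class I enzymes in 4 of 18 (22.2%, interval 6.41 to 47.6), and these intervals overlap and both include the 24.9% of all protein-coding genes. Cytosolic enzymes known in animals as parts of the multisynthetase complex were occupied in 3 of 7 cases, AspRS, IleRS and MetRS (42.9%, interval 9.90 to 81.6), and the other cytosolic enzymes in 6 of 10 (interval 26.2 to 87.8). GluProRS, another part of that complex, was occupied but is left out of this count by its symbol, as described below.

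Neighbouring starts differed between both sets of enzymes. A protein-coding gene transcribed the opposite way, with its start upstream and within 1000 bp (a divergent partner), was present at 15 of 17 cytosolic genes (88.2%), at 7 of 15 mitochondrial genes (46.7%) and at 36.2% of all protein-coding genes. The other 8 mitochondrial genes had no protein-coding start within 1000 bp, and every cytosolic gene had one. Genes with a divergent partner were occupied in 43.4% of cases over all protein-coding genes, those with another kind of close start in 16.5%, and those with none in 14.1%.

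Within genes that have a divergent partner, 9 of 22 synthetases were occupied (40.9%, exact interval 20.7 to 63.6). The share of all protein-coding genes with such a partner, 43.4%, lies within that interval. By set, 8 of 15 cytosolic enzymes (53.3%, exact interval 26.6 to 78.7) and 1 of 7 mitochondrial enzymes (14.3%, interval 0.361 to 57.9) were occupied. Over the replicates' strongest regions the cytosolic share of such genes was 53.3% in each, and the mitochondrial share was 14.3%, 28.6% and 14.3%. All protein-coding genes with a divergent partner had 45.5%, 44.6% and 41.4%, between both sets of enzymes. The difference was 34.3 percentage points ± 8.25 (SD, n = 3; exact sign-flip permutation p = 0.25, the smallest possible). This comparison was added after the data were seen. Among the 8 mitochondrial genes with no close start, 1 was occupied (AspRS-m, 12.5%).

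**Figure D3:**
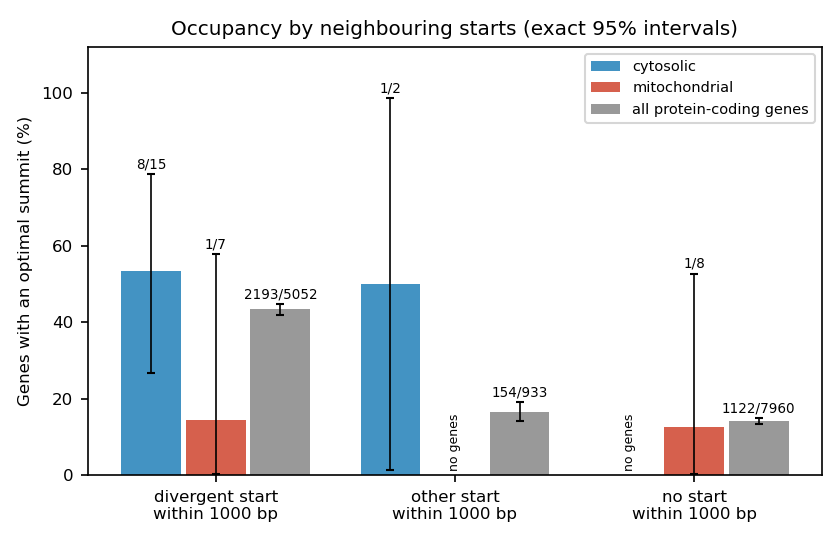
Percentage of genes occupied in the optimal set by the kind of protein-coding start found within 1000 bp, for cytosolic synthetases, mitochondrial synthetases and all protein-coding genes, with exact 95% intervals and counts above the bars. With a divergent start 8 of 15 cytosolic and 1 of 7 mitochondrial genes were occupied, and empty combinations are marked as having no genes.

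Most occupied synthetases shared their strongest summit with a neighbour. In 9 of 11 cases (81.8%) another protein-coding gene also had a start no more than 500 bp from it, and over all 3469 occupied protein-coding genes this was so for 2026 (58.4%). The summit was nearer to the synthetase in 6 of these 9. IleRS faces Hem, which encodes a subunit of the actin-regulating WAVE complex, and the summit was 158 bp from IleRS and 312 bp from Hem. ThrRS faces Patsas (218 bp and 248 bp), AsnRS faces DCTN6-p27, a dynactin subunit gene (109 bp and 260 bp), and MetRS faces CG15084 (96 bp and 149 bp). GlyRS faces both Plp, the gene of a centrosomal pericentrin-like protein, and sstn, at 338 bp and 343 bp from a summit 80 bp from GlyRS. At SerRS, the start of CG17260 is only 8 bp away, and the summit was 24 bp from one and 32 bp from the other.

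At the remaining 3 genes the neighbour was closer. The ValRS summit was 475 bp from ValRS and 38 bp from Kdm4B, a histone demethylase gene. CysRS-m and O-fut1 were described above, and the AspRS summit was 280 bp from AspRS and 206 bp from Nmda1. When a summit was assigned to nothing but its closest protein-coding start, AspRS, ValRS and CysRS-m were lost and 8 of 32 synthetases remained (25.0%, against 18.7% of all protein-coding genes). AlaRS and AspRS-m shared their summit with no other protein-coding start. The closest one at AlaRS, of CG13392 on the same strand, lay 959 bp from the AlaRS start and 922 bp from the summit. The strongest summit of each occupied synthetase had no start of a noncoding gene within 500 bp, which was not counted for other genes.

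**Figure D4:**
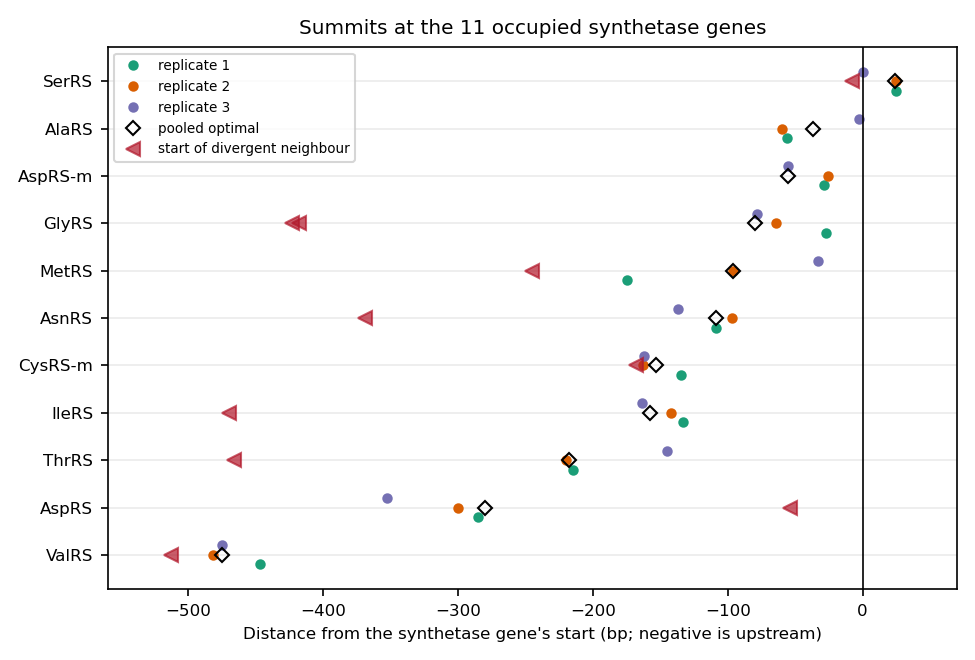
Distance in bp from the synthetase start to the summit in each replicate (circles) and in the pooled optimal set (diamonds), with the start of the divergent neighbour (triangles) where that also lies within 500 bp of the summit. SerRS alone lies downstream of its start, by 24 bp, and ValRS lies farthest upstream, by 475 bp, next to its neighbour's start; AspRS is drawn from an inner start.

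Summits lay upstream of the synthetase start in 10 of 11 cases, with a median of -109 bp, and in 7 of 11 within 200 bp upstream. Over all occupied protein-coding genes the median was -139 bp, 89.5% were upstream and 57.1% within 200 bp upstream. The 3 replicates put a synthetase's summit within 25 bp (SerRS) to 142 bp (MetRS) of each other, with a median range of 40 bp. Of the 11 occupied genes, 9 had an intergenic summit, a share that was not computed for other genes. The median signal of occupied synthetases was 356.4 (191.3 to 1216), that of occupied cytosolic ones 507.1, and that of all 3469 occupied protein-coding genes 374.3. IleRS and SerRS, 2 of 11 (18.2%), were among the 642 strongest optimal regions, as were 15.7% of all occupied genes.

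By chromosome arm, 5 of 6 synthetases on 2L were occupied (83.3%, exact interval 35.9 to 99.6, against 24.9% of protein-coding genes there), 4 of 8 on 2R (against 24.0%) and 2 of 10 on 3L (against 25.9%). On 3R 0 of 5 were (exact interval 0 to 52.2, against 26.0%), and on X 0 of 3 were (exact interval 0 to 70.8, against 23.0%). The numbers per arm are small, and the arms differ in which enzymes they hold.

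The 21 unoccupied synthetases had their nearest optimal summit 927 to 26379 bp away, with a median of 6607 bp. The nearest to the limit of 500 bp was LeuRS-m, which faces Dhc64C, the dynein heavy chain gene, and had a summit of signal 1050 at 927 bp. ValRS, at 475 bp, was the farthest occupied gene. At AlaRS-m the nearest summit, 6607 bp away, was the one of signal 3813 (rank 16) at Tcs5, a gene of tRNA modification.

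Of these 21 genes, 6 had a summit of the pooled relaxed list within 500 bp, with signals of 87.6 to 137.4. They were ArgRS, ArgRS-m, GlnRS, LeuRS-m, TrpRS and TrpRS-m, and their summits lay 45 to 117 bp from the start. ArgRS and ArgRS-m also had a region in all 3 replicate lists. ArgRS ranked 6812, 9493 and 16277 in replicates 1, 2 and 3, and ArgRS-m ranked 12315, 6390 and 15351. GlnRS and TrpRS had one in replicates 2 and 3, TrpRS-m in replicates 1 and 2, and LeuRS-m in replicates 1 and 3.

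SerRS-m, ProRS-m, CysRS, HisRS, GluRS-m, MetRS-m and PheRS-m had a region in 1 or 2 replicates but none in the pooled list within 500 bp. SerRS-m was the strongest of them, with a signal of 60.1 (rank 5147) in replicate 1 and 95.4 (rank 4868) in replicate 2, at 392 and 384 bp upstream of the start. In replicate 3 the nearest summit to SerRS-m was 2707 bp away. The other 6 genes ranked between 11033 (ProRS-m, replicate 1) and 25585 (CysRS, replicate 2). LeuRS, LysRS, TyrRS, AlaRS-m, AsnRS-m, IleRS-m, TyrRS-m and ValRS-m had no region within 500 bp of a start in any list.

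The rule leaves out 3 synthetase genes with longer symbols. GluProRS, a fused enzyme for glutamate and proline, was occupied, with a pooled signal of 916.1 (rank 512) 97 bp upstream of a start and replicate signals of 287.4, 342.7 and 278.0. The genes of both subunits of the cytosolic phenylalanine enzyme were not occupied. At alpha-PheRS the pooled relaxed list had a summit of signal 121.3, 120 bp upstream. For beta-PheRS, replicates 1 and 2 had regions of signal 75.0 and 136.5 (ranks 3881 and 3026) 34 and 89 bp upstream, and neither the pooled list nor replicate 3 had one within 500 bp.

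Other settings moved the count of occupied synthetases beside that of all genes. Within 250 bp of a start 10 of 32 were occupied (31.2%, against 20.0%), and within 1000 bp 12 were (37.5%, against 28.6%). Counting any overlap of a region with the window gave 11 (34.4%, against 26.6%), and counting the outermost start alone gave 10 (31.2%, against 22.6%). Among the 3210 optimal regions of highest signal 6 remained (18.8%, against 14.9%). When an optimal region had to overlap a strongest region of both other replicates, 10 genes remained without replicate 1 (against 21.0%), 9 without replicate 2 (against 20.8%) and 9 without replicate 3 (against 21.6%). AspRS-m was lost in all of these last settings and AlaRS in the last pair. The optimal set was itself made from all 3 replicates, so these settings could only lower the counts.

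Elements known from other promoters were searched on both strands in the 101-base windows. A match is one of letters only, and its place relative to a start was not tested. The letters of the TATA box, TATAAA, occurred in 7 of 11 synthetase windows (63.6%, at SerRS, AlaRS, AsnRS, AspRS, CysRS-m, MetRS and GlyRS). They occurred at 21.5% of 2821 other promoter summits, and in 18.2% of windows of the same length centred 100 bp upstream of all protein-coding genes. The synthetase windows have the lower GC content given above, whose part in the count was not tested. The BEAF-32 core CGATA occurred in 3 (27.3%, against 23.0% and 20.4%), at AlaRS, AspRS-m and ValRS, and AlaRS held the longer palindrome TATCGATA, which contains it. CAGCNCTG, of the kind named Motif 7, occurred at ValRS and GlyRS (18.2%, against 3.62% and 2.00%), and GGTCACAC, the Motif 1 core, at ValRS (9.09%, against 1.74% and 1.39%). The E-box CACGTG, TGATGNAA (the type of element that the stress factor ATF4 reads at synthetase genes of mammals), GAGAG and GATAAG were each in 0 of 11 windows, which allows a share of up to 27.3%, and the other promoter summits held them in 0.957%, 1.24%, 8.90% and 5.07% of cases.

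Genes of tRNA charging, processing and use were counted from lists of 63 genes, some of which act elsewhere, with examples given below. Of the 63, 25 were occupied (39.7%, against 24.9% of all protein-coding genes). One list holds the genes of the multisynthetase complex scaffold proteins AIMP1, AIMP2 and AIMP3, the synthetase-like Slimp and the proofreading enzyme Dtd. Of these 5 genes 0 were occupied. An approximate limit, 3 divided by the number of genes, allows up to 60.0%, which is wider than an exact interval. For charging in mitochondria by amidation and formylation 2 of 4 genes were occupied, GatA (signal 568.3) and GatC (196.2). Both encode subunits of the amidotransferase that makes glutamine tRNA from glutamate tRNA. Factors that take charged tRNA to the ribosome, or assist there, had 4 of 11. These were eEF1gamma (1062), a subunit of the exchange factor complex, eEF1alpha1 (451.8), the carrier of charged tRNA itself, and mEFTu1 (238.0) and mEFTu2 (222.0), its mitochondrial counterparts.

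The tRNA modification list had 12 of 24 occupied (50%). Tcs5 (signal 3813), a kinase of the complex that makes threonyl-carbamoyl adenosine, RluA-1 (2607), a pseudouridine synthase gene, and Elp5 (1732) and Elp6 (1434), of the Elongator complex, led it. All 4 of these signals were above that of IleRS. The 12 also include Dph1 (681.6) and Nsun5 (814.1), whose products act on an elongation factor and on ribosomal RNA, not on tRNA. Genes for processing of tRNA ends had 4 of 12, namely RNaseZ (468.6), the nuclease of the 3' end, La (434.3), Rpp20 (315.7) and rswl (260.5). That list also counts swa, a gene of mRNA localization, which was not occupied. In the list for the response to uncharged tRNA 3 of 7 were occupied. They were eIF2beta (406.6), a subunit of the initiation factor that the response targets, Thor (278.7), the 4E-BP translation repressor, and crc (250.6), the fly ATF4. This list also counts PEK, a kinase gene of the unfolded protein response, which was not occupied.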

How the data were processed

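Chromatin immunoprecipitation was done on 3 biological replicates (1 technical replicate of each). Sonicated fragments of 200 to 800 bp were used, per the labels. Regions were called by the authors against a control alignment, for each replicate and on pooled reads, and an optimal set was thresholded on irreproducible discovery rate, as the deposited notes of the samples record. No caller, aligner or version is named in the sources that were read. The deposited signal values (column 7) have no stated scale, and summits are the region start plus column 10. Lists hold 6420 optimal, 29056 pooled, and 22198, 30000 and 29796 replicate regions. Read counts were not used here, so depth is unknown. Nothing but the biological replicate number in the labels says how separate the embryo collections were, so spread between replicates may be partly technical. The dm3 lists were not used.

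Gene starts were all transcript starts of Ensembl release 115 on dm6. A gene was occupied when a summit lay within 500 bp of a start, so genes can share a region. Where several summits qualified, the strongest gave the values. The comparison within genes that have a divergent partner was chosen after seeing the data. Members, gene lists and elements were chosen with earlier results of these data known, and no list test was made. Of the gene list names, 15 did not match the annotation and 1 was an older name of MetRS, and these were not counted. All members are named, with neighbours of occupied ones and at most 4 genes per other list, by signal, besides Dph1, Nsun5, swa and PEK. Occupancy calls matched those of bedtools for 13945 of 13945 genes, and the steps were tested on simulated data. The software was scipy 1.17.1, pandas 2.3.3 and numpy 2.4.6 under Python 3.11.15, with figures from matplotlib 3.10.9. Alternatives cover windows, thresholds, overlap, starts, names, and each replicate left out of the replicate means or of the overlap filter on the optimal set.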

Additional observations from a re-analysis of the deposited data

How the results depend on the processing

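Counts of occupied synthetases depend mainly on the threshold of the region list. In place of 11 in all, 6 were occupied among the 3210 strongest optimal regions and 17 on the pooled relaxed list. For mitochondrial enzymes, the 2 occupied genes became 0, 5 and, by nearest start, 1. Leaving a replicate out of the overlap filter on the optimal set gave 1 in each case, since AspRS-m was lost. That filter keeps the set made from all 3 replicates and can only lower counts, so it is not a full removal of a replicate. In the other settings run, the counts stayed within 1.5 times, and the cytosolic count did so in all, from 6 to 12. The pooled difference of 39.6 percentage points ranged from 32.9 to 46.3, with that filter among the settings. Its mean over replicates, 37.6, ranged from 33.3 to 40.0 with 1 replicate left out, and was 26.1 with all regions counted, where replicate 1 alone had the opposite sign (-1.18). No paired analysis was possible because all samples form 1 group, so no sample groups could be paired. The cytosolic and mitochondrial shares were compared within each replicate. Unknown read depth limits what absence from a list shows.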

Other observations

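SerRS-m and beta-PheRS had summits among the 6420 strongest regions of replicates 1 and 2, but none within 500 bp in replicate 3 or in the list called on the pooled reads. Of 3088 protein-coding genes with a summit among the strongest regions of both replicates 1 and 2, 19 (0.615%) had this pattern. The corresponding numbers were 11 of 2959 for replicates 1 and 3 without replicate 2, and 4 of 2956 for replicates 2 and 3 without replicate 1. The reads at these starts were not analysed here.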
